A study of Mus musculus with 10 samples.

Results

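The genes described here control passage through the G1 phase of the cell cycle: the D-type cyclins *Ccnd1*, *Ccnd2* and *Ccnd3*, their kinases *Cdk4* and *Cdk6*, the CIP/KIP inhibitors *Cdkn1a* (p21), *Cdkn1b* (p27) and *Cdkn1c* (p57), the retinoblastoma gene *Rb1* and the transcription factor gene *Myc*. They were taken by symbol as G1 control genes downstream of ERK, by a rule that names no measured value, though earlier results of these data were known, and all 10 were found among the 54532 genes of the deposited table. The libraries were made from heart tissue of *Rit1* M90I/+ mice, which carry 1 copy of a RIT1 variant linked to Noonan syndrome. Trametinib, an allosteric MEK1/MEK2 inhibitor (MEKi), was given at 1 mg/kg once a day to 5 of the mice, and the other 5 received the vehicle alone. Dosing began at 4 weeks of age and lasted 20 weeks. All 10 mice carried the variant, produced by crossing conditional *Rit1* M90I males with females of a deleter line whose Cre is driven by the cytomegalovirus promoter, so the variant was not limited to heart cells. No hearts without the variant were analysed here, and the part of the heart taken for RNA is not given in the sources used here.

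Growth signals relayed by RAS, RAF, MEK and ERK raise the transcription of D-type cyclins, above all cyclin D1. D-type cyclins bind CDK4 or CDK6, and the active kinases phosphorylate the RB protein, which then releases E2F factors to switch on genes for DNA synthesis. CIP/KIP proteins bind cyclin-CDK complexes: all of them inhibit CDK2, and p21 and p27 also help to assemble cyclin D with CDK4. MYC is a short-lived transcription factor that ERK stabilizes and that promotes biosynthesis and cell cycle entry. Most adult cardiomyocytes have left the cell cycle, so transcripts of these genes in heart tissue come from nondividing muscle cells as well as from endothelial cells, fibroblasts and immune cells.

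Library depth, as fragments recovered for all genes, ran from 13647167 to 18474002. The 6 cardiomyocyte transcripts (*Myh6*, *Tnnt2*, *Actc1*, *Myl2*, *Ryr2* and *Tnni3*) summed to between 14563 and 20089 FPKM (fragments scaled to gene length and library depth) in vehicle hearts and between 14342 and 19792 FPKM in MEKi-treated hearts, and none was at 0 in any heart. In 3 hearts (vehicle 4, vehicle 5 and MEKi 2) there were from 810.1 to 2159 FPKM of 6 atrial transcripts, where the other 7 had from 127 to 458 FPKM. The red cell transcripts of vehicle hearts 4 and 5 summed to 23639 and 25874 FPKM, above the 2899 to 7386 FPKM of the other 8. The transcript *Xist* of the inactive X chromosome was at 5.16 to 6.85 FPKM with MEKi and had at most 2 fragments in any vehicle heart, while the Y-linked *Ddx3y* was listed at 0 in every MEKi-treated heart. Contributions of treatment and of whatever divides the hearts by these X- and Y-linked transcripts to any gene below cannot be told apart.

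One regulatory sequence is shown because it belongs to a gene among the highest of the 10 in FPKM and carries recognition letters of MYC, another of the 10. It is the *Cdk4* promoter from RefSeq (GRCm38.p6, chr10:127063285-127063584, plus strand), a window around the start site, 5′ to 3′, with each E-box (CACGTG, the same on both strands) and each match to an E2F core (GGCGCG on either strand) in capitals:

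*Cdk4* promoter: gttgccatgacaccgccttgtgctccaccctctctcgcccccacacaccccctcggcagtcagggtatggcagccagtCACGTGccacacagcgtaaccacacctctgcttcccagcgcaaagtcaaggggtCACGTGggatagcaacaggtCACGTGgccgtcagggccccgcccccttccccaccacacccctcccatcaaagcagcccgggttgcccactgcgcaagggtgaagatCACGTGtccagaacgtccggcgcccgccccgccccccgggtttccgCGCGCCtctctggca

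In this window lie 4 E-boxes, which begin 172, 118, 98 and 11 bases before the start site. An E-box was found in 7.15% of the 32851 mouse promoters in the table, and 4 or more were found in 8 of them (0.0244%). The single E2F core of the window, a letter string present in 19.2% of all promoters, begins 35 bases after the start site. Promoters were matched for 5 of the 10 genes, 7 windows in all counting alternative starts of *Cdkn1a* and *Ccnd3*. The *Cdk6* window held 1 E-box, 220 bases before its start site, and none of the 7 held the AP-1 letters TGAGTCA, which 5.20% of all promoters hold on either strand. Such matches describe letters and do not show that a factor binds.

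*Cdk4* and *Cdkn1c* had the highest mean levels, *Myc* and *Cdk6* the lowest. Over the 10 hearts, *Cdk4* was at 12.9 ± 1.27 FPKM (SD, n = 10) and *Cdkn1c* at 11.8 ± 2.74 FPKM, and *Cdk4* was the higher of these in 6 of 10 hearts, so their order did not hold beyond the spread. *Ccnd1* followed at a mean of 8.81 ± 2.13 FPKM. It was under *Cdkn1c* in 7 of 10 hearts, so these could not be ordered either. *Ccnd2* (7.27 ± 1.89 FPKM), *Cdkn1b* (7.10 ± 0.973 FPKM), *Cdkn1a* (6.75 ± 2.75 FPKM) and *Ccnd3* (6.35 ± 0.731 FPKM) could not be ordered, since each exceeded the next in 4 to 7 of 10 hearts. *Rb1* stood apart below them at 2.77 ± 0.257 FPKM, under *Ccnd3* in 10 of 10 hearts. *Myc* was at 1.19 ± 0.652 FPKM and exceeded *Cdk6* (0.724 ± 0.125 FPKM) in 8 of 10 hearts. FPKM is a level per length of all annotated exons of a gene, so the order between genes depends on that length. In every heart *Ccnd2* (9409 bases, 767 to 1763 fragments) had more fragments than *Ccnd1* (4709 bases, 445 to 821 fragments). *Cdk4* stood at the 79.9th percentile of the 12602 genes tested and *Cdk6* at the 7.93th, and all 10 genes reached the mean of 0.5 FPKM required for a test.

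**Figure D1:**
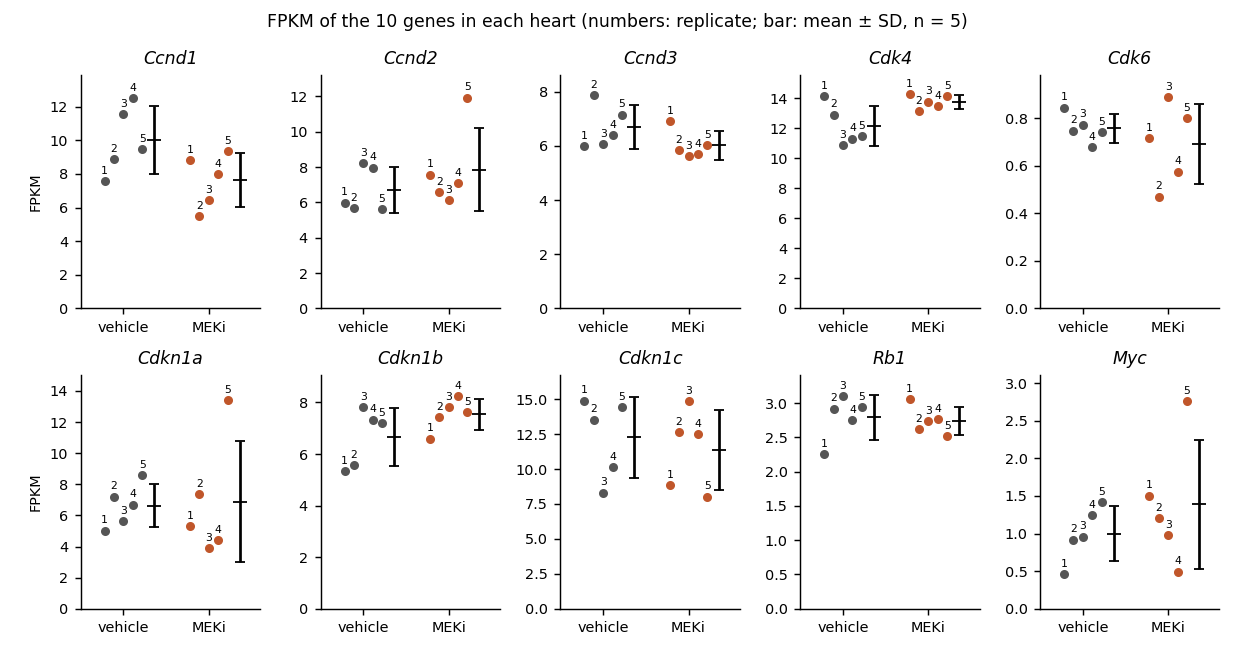
FPKM (linear axes from 0) of each of the 10 genes in the 5 vehicle hearts (grey) and the 5 MEKi-treated hearts (orange), with replicate numbers and, beside them, the mean ± SD of each group. The groups overlap for all 10 genes, and MEKi heart 5 is the highest heart for *Ccnd2* (11.9 FPKM), *Cdkn1a* (13.4 FPKM) and *Myc* (2.76 FPKM).

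The comparison of MEKi-treated with vehicle hearts asks whether G1 control genes downstream of ERK differ after long MEK inhibition. None of the 10 genes passed the threshold of 0.05 after Benjamini-Hochberg adjustment over all 12602 genes in limma, fitted to log2(FPKM + 0.1), nor by limma's voom on recovered fragments. The background is low, since 10 of the 12602 genes passed (0.0794%), made up of 0.0238% higher and 0.0555% lower with MEKi. The 10 that passed include *Xist* and *Kdm6a* of the X chromosome and *Ddx3y*, *Eif2s3y*, *Uty* and *Gm29650* of the Y chromosome. The others were *Hsd11b1*, *Ifi211* and *Rgs4* of chromosome 1 and *Gm24270* of chromosome 9. In a fit without X, Y and mitochondrial genes, 0 of 12178 passed, so these autosomal genes did not pass there. At an unadjusted p under 0.05 stood 1 of the 10 genes, *Ccnd1*, beside 7.62% of all genes tested. On the log2 scale a higher mean with MEKi was seen for 4 genes and a lower one for 6, none of them past the threshold. Their median fold change on the log2 scale was −0.05, beside 0.01 for all genes tested. Groups overlapped for each of the 10, where 1.64% of all genes tested had groups that did not overlap (0.794% higher and 0.849% lower). Such p-values set the difference between groups against the spread of these 10 hearts within their groups. They do not separate treatment from the division by X- and Y-linked transcripts.

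*Ccnd1* (chromosome 7 of GRCm38, 144929931 to 144939925, minus strand) encodes cyclin D1, the D-type cyclin most closely tied to ERK activity. Vehicle hearts 1 to 5 had 7.56, 8.87, 11.6, 12.5 and 9.46 FPKM, and MEKi-treated hearts 1 to 5 had 8.80, 5.51, 6.45, 7.98 and 9.37 FPKM. All 5 MEKi-treated hearts were below the vehicle median of 9.46 FPKM, but only 2 were below the lowest vehicle heart, vehicle 1. The group means were 9.99 ± 2.02 and 7.62 ± 1.61 FPKM (SD, n = 5 each). In limma this was a fold change of −0.39 on the log2 scale with SE 0.17, unadjusted p = 0.0437 and adjusted p = 0.637, and a 95% interval from 0.587- to 0.991-fold. A two-sided exact permutation test of the group labels gave p = 0.0873, where 0.00794 is the smallest possible. Without the 3 hearts with high atrial transcripts, which include both the highest heart for *Ccnd1* (vehicle 4) and the lowest (MEKi 2), the log2 fold change was −0.18 (limma adjusted p = 0.955). The gene listed as *LTO1*, on the opposite strand, shares 1100 bases (23.4%) with the exons of *Ccnd1*. Without a stated strand setting the reads there cannot be assigned. The means of *LTO1* itself were 2.06 and 2.05 FPKM.

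*Ccnd2* (chromosome 6, 127125162 to 127152193, minus strand), the gene of cyclin D2, was at 5.98, 5.65, 8.24, 7.96 and 5.60 FPKM in vehicle hearts 1 to 5. In MEKi-treated hearts 1 to 5 it was at 7.57, 6.57, 6.14, 7.08 and 11.9 FPKM. MEKi heart 5 alone lay above every vehicle heart, while the other 4 had a mean of 6.84 ± 0.620 FPKM, next to a vehicle mean of 6.69 ± 1.30 FPKM. The log2 fold change was 0.21 (SE 0.18 and adjusted p = 0.820 in limma; 95% interval 0.874- to 1.53-fold) and 0.05 without MEKi heart 5. *Ccnd3* (chromosome 17, 47505051 to 47599691, plus strand), the gene of cyclin D3, varied least of the D-type cyclins, from 5.99 to 7.87 FPKM with vehicle and from 5.63 to 6.90 FPKM with MEKi. In 3 treated hearts it was below every vehicle heart (limma log2 fold change −0.15 with SE 0.10 and adjusted p = 0.771; 95% interval 0.772- to 1.05-fold). The fold change was −0.09 without vehicle heart 2. On a TPM scale, which moved the median of all genes tested from 0.01 to 0.09, it was −0.07.

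Within a heart, the D-type cyclins can be compared free of library scaling, as shares of their summed FPKM. *Ccnd1* made up 38.7, 39.6, 44.7, 46.6 and 42.6% of the sum in vehicle hearts 1 to 5 and 37.8, 30.7, 35.4, 38.5 and 34.3% in MEKi-treated hearts 1 to 5. The vehicle hearts were thus all above the treated ones, by a narrow margin between MEKi heart 4 and vehicle heart 1. The share averaged 42.4 ± 3.34% with vehicle and 35.3 ± 3.08% with MEKi (SD, n = 5 each), a difference of −7.10 percentage points that was −4.51 without the 3 hearts with high atrial transcripts. *Ccnd2* took the larger share with MEKi, 36.1 ± 4.47% beside 28.5 ± 3.09%. Its range was 32.5 to 43.7% beside 25.2 to 31.8%, without overlap. *Ccnd3* held 29.1 ± 5.22% with vehicle and 28.5 ± 4.08% with MEKi. The shares are parts of the same sum, and the mean share of *Ccnd3* hardly differed. In these means the higher *Ccnd2* share is thus the counterpart of the lower *Ccnd1* share and not a separate result. Without the 3 hearts with high atrial transcripts the match was less close. The difference was then 6.77 percentage points for *Ccnd2*, beside −4.51 for *Ccnd1* and −2.26 for *Ccnd3*. In FPKM, the groups overlapped for *Ccnd1* and for *Ccnd2*. No background rate was computed for such shares. By FPKM, *Ccnd1* led in all 5 vehicle hearts, and *Ccnd2* led in MEKi hearts 2 and 5. By fragments, not divided by length, *Ccnd2* was above *Ccnd1* in every heart.

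**Figure D2:**
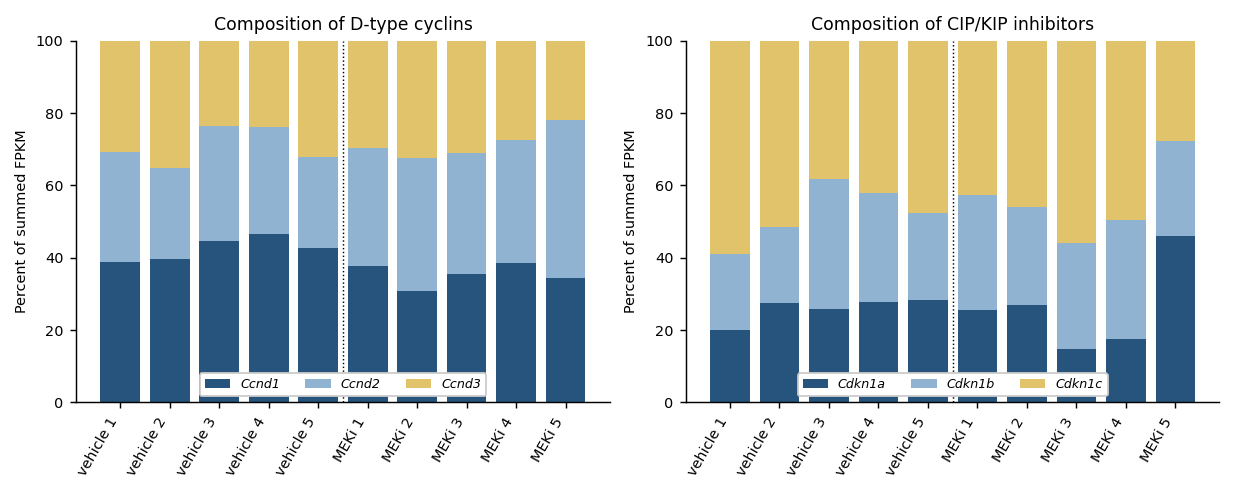
Percent of the summed FPKM of the D-type cyclins (left) and of the CIP/KIP inhibitors (right) contributed by each gene, with 1 bar per heart and a dotted line between vehicle and MEKi hearts. The *Ccnd1* segment is at 38.7% or more in every vehicle heart and at 38.5% or less in every MEKi-treated heart, and *Cdkn1c* is the largest inhibitor segment everywhere but in MEKi heart 5.

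The same pattern was read as the log2 ratio of *Ccnd1* to *Ccnd2*, each with 0.1 FPKM added. It was 0.33, 0.64, 0.48, 0.65 and 0.75 in vehicle hearts 1 to 5 and 0.21, −0.25, 0.07, 0.17 and −0.35 in MEKi-treated hearts 1 to 5. The means were 0.57 ± 0.16 and −0.03 ± 0.25 (SD, n = 5 each), a difference of −0.60. Of the 45 ratios that the 10 genes can form, this was the only 1 (2.22%) whose groups did not overlap. It was taken up after the shares had been seen, and as a measure over chosen genes it is given without a test. The ratio of *Ccnd1* to each of the other 12601 genes tested was lower in all MEKi-treated hearts than in all vehicle hearts for 652 genes (5.17%), so *Ccnd2* was not alone in this. For *Ccnd2*, 95 genes (0.754%) gave a ratio that was higher in all MEKi-treated hearts. The difference on leaving out single hearts stayed between −0.66 and −0.52, and without the 3 hearts with high atrial transcripts it was −0.46.

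*Cdk4* (chromosome 10, 127063534 to 127067920, plus strand), the kinase gene whose promoter is shown above, had 14.1, 12.9, 10.9, 11.3 and 11.5 FPKM in vehicle hearts 1 to 5 and 14.2, 13.1, 13.8, 13.5 and 14.1 FPKM in MEKi-treated hearts 1 to 5. All 5 MEKi-treated hearts were above the vehicle median of 11.5 FPKM with MEKi hearts 1 and 5 level with or just above the highest vehicle heart, vehicle 1. The means were 12.1 ± 1.35 and 13.7 ± 0.471 FPKM (SD, n = 5 each). In limma the log2 fold change was 0.18 with SE 0.09, unadjusted p = 0.0629 and adjusted p = 0.664, and a 95% interval from 0.992- to 1.30-fold. An exact permutation test gave an unadjusted p of 0.0476. *Tspan31*, on the opposite strand, shares 641 exon bases (19.7%) with *Cdk4*, and its means were 11.2 and 10.1 FPKM. *Cdk6* (chromosome 5, 3341485 to 3531008, plus strand), which encodes the partner kinase, had from 0.678 to 0.845 FPKM with vehicle and from 0.471 to 0.891 FPKM with MEKi, on 113 to 199 fragments (limma log2 fold change −0.14 with SE 0.19 and adjusted p = 0.903; 95% interval 0.678- to 1.21-fold). Its value was −0.03 without MEKi heart 2, −0.09 without MEKi heart 4 and −0.23 without MEKi heart 3, −0.08 on a TPM scale and without the 3 hearts with high atrial transcripts, and −0.06 with 1 FPKM added. *Cdk4* accounted for 94.1 ± 0.466% of the summed FPKM of both kinases in vehicle hearts and 95.2 ± 1.02% in MEKi-treated hearts.

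**Figure D3:**
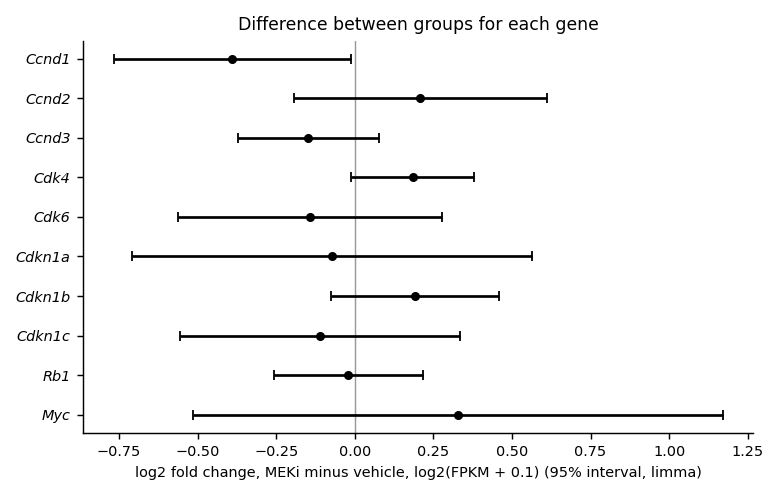
Log2 fold change (MEKi minus vehicle, on log2(FPKM + 0.1)) of each of the 10 genes with its 95% interval from limma, not adjusted for the number of genes. The interval of *Ccnd1* (−0.77 to −0.01) excludes 0 before adjustment and the other 9 do not, with *Myc* the widest (−0.52 to 1.17).

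Among the inhibitors, *Cdkn1a* (chromosome 17, 29090976 to 29100727, plus strand) encodes p21, a target of p53 and of stress signals. It was at 5.02, 7.20, 5.64, 6.69 and 8.57 FPKM in vehicle hearts 1 to 5 and at 5.29, 7.38, 3.89, 4.41 and 13.4 FPKM in MEKi-treated hearts 1 to 5. MEKi heart 5 was 2.56 times the mean of the other 4 treated hearts (5.24 ± 1.54 FPKM), 2 of which were below every vehicle heart. The fit put the log2 fold change at −0.07 (SE 0.29 and adjusted p = 0.966 in limma; 95% interval 0.611- to 1.48-fold), and −0.35 without MEKi heart 5. The arithmetic means, 6.62 ± 1.38 and 6.87 ± 3.88 FPKM, differ in the opposite direction from the means on the log2 scale. On a TPM scale the log2 fold change was 0.0028, and without MEKi heart 3 it was 0.0899.

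*Cdkn1b* (chromosome 6, 134920401 to 134925513, plus strand), which encodes p27, the inhibitor associated with quiescent cells, had from 5.33 to 7.82 FPKM with vehicle and from 6.60 to 8.25 FPKM with MEKi. Of the 5 MEKi-treated hearts, 4 were above the vehicle median of 7.22 FPKM (limma log2 fold change 0.19 with SE 0.12 and adjusted p = 0.757; 95% interval 0.948- to 1.38-fold), and the value was 0.12 without vehicle heart 1 and 0.29 without the 3 hearts with high atrial transcripts. *Cdkn1c* (chromosome 7, 143458339 to 143461050, minus strand) encodes p57 and is an imprinted gene expressed from the maternal copy. It spread widely in both groups, at 14.9, 13.5, 8.31, 10.1 and 14.4 FPKM in vehicle hearts 1 to 5 and 8.87, 12.6, 14.9, 12.5 and 8.02 FPKM in MEKi-treated hearts 1 to 5 (limma log2 fold change −0.11 with SE 0.20 and adjusted p = 0.932; 95% interval 0.681- to 1.26-fold). Leaving out single hearts placed its value between −0.24 (without vehicle 3) and 0.0047 (without MEKi 5). By FPKM it was the leading inhibitor transcript in 9 of 10 hearts, with 47.7 ± 8.15% of the summed inhibitor FPKM in vehicle hearts and 44.4 ± 10.6% in MEKi-treated hearts. In MEKi heart 5, *Cdkn1a* took 46.1% and *Cdkn1c* 27.6%. The summed inhibitors were at 25.5 ± 3.10 and 25.8 ± 3.15 FPKM, next to 23.4 ± 2.98 and 21.5 ± 3.91 FPKM for the summed D-type cyclins (SD, n = 5 each), so the log2 ratio of cyclins to inhibitors, −0.13 ± 0.31 with vehicle and −0.27 ± 0.32 with MEKi, differed by less than the spread between hearts.

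*Rb1* (chromosome 14, 73183673 to 73325822, minus strand), the pocket protein gene that the kinases act on, was among the steadiest of the 10, from 2.25 to 3.10 FPKM with vehicle and from 2.52 to 3.06 FPKM with MEKi. Its log2 fold change was −0.02 (SE 0.11 and adjusted p = 0.974 in limma), and its 95% interval ran from 0.837- to 1.16-fold. On a TPM scale, which moved the median of all genes from 0.01 to 0.09, it was 0.06, and leaving out single hearts placed it between −0.0926 (without vehicle 1) and 0.0181 (without vehicle 3). *Myc* (chromosome 15, 61985391 to 61990374, plus strand) was the most variable, at 0.459, 0.919, 0.958, 1.24 and 1.42 FPKM in vehicle hearts 1 to 5 and 1.503, 1.20, 0.977, 0.494 and 2.76 FPKM in MEKi-treated hearts 1 to 5. Between 21 and 118 fragments per heart lay behind these values. The lowest and the highest heart differed 6.02-fold, and MEKi heart 5 was 2.65 times the mean of the other 4 treated hearts (1.04 ± 0.425 FPKM). The difference between groups was within this spread (limma log2 fold change 0.33 with SE 0.39 and adjusted p = 0.881; 95% interval 0.699- to 2.25-fold) and moved with single hearts, to 0.04 on the log2 scale without MEKi heart 5, 0.10 without vehicle heart 1 and 0.61 without MEKi heart 4. It was 0.63 without the 3 hearts with high atrial transcripts, 0.21 with 1 FPKM added and 0.19 with array weights.

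**Figure D4:**
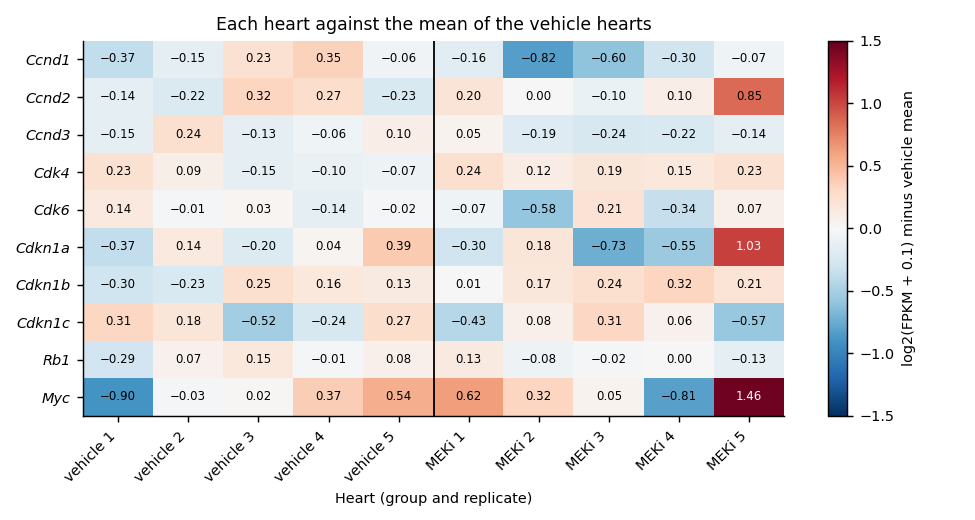
Log2(FPKM + 0.1) of each gene in each heart minus the mean of the 5 vehicle hearts, with the value printed in each cell. MEKi heart 5 stands at 0.85 for *Ccnd2*, 1.03 for *Cdkn1a* and 1.46 for *Myc*, and vehicle heart 1 at −0.90 for *Myc*, −0.29 for *Rb1* and −0.30 for *Cdkn1b*.

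The 10 genes differed in how widely they varied between hearts. The SD around the group means, on the log2 scale, was 0.115 for *Cdk4*, 0.14 for *Rb1* and for *Ccnd3*, 0.54 for *Cdkn1a* and 0.70 for *Myc*, where the median of all genes tested was 0.25. These placed *Cdk4* at the 5.29th percentile of all genes tested and *Myc* at the 93.7th. MEKi heart 5 was the highest heart for *Ccnd2*, *Cdkn1a* and *Myc* and the lowest for *Cdkn1c*. Vehicle heart 1 was the lowest for *Cdkn1b*, *Rb1* and *Myc* and the highest for *Cdkn1c*. In MEKi heart 5 the cardiomyocyte transcripts summed to 14342 FPKM, the lowest sum of the 10 hearts but close to 14563 FPKM in vehicle heart 5. The 5 endothelial transcripts summed to 93.8 FPKM, also the lowest but close to 94.2 FPKM in vehicle heart 3. In MEKi hearts 1 to 4 the cardiomyocyte sums were higher, at 18067, 18979, 18254 and 19792 FPKM. The endothelial sums of the same hearts were 115.7, 105.6, 114.5 and 109.2 FPKM. MEKi heart 5 was thus below the other treated hearts in both sums, though level with a vehicle heart in each. The part of these sums in the values of MEKi heart 5 was not tested. In tissue libraries fewer cells of a type and less RNA per cell cannot be told apart.

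The genes most like *Ccnd1*, *Cdkn1a* and *Myc* across hearts were named by the highest Pearson r of their deviations from the group means, over 10 hearts and 9804 other protein-coding genes averaging 1 FPKM or more. For *Ccnd1* these were *Dusp3* (r = 0.963, Spearman's rho = 0.964), *Rbm26* (r = 0.920) and *Arhgap24* (r = 0.919). For *Cdkn1a* they were *Fam129a* (r = 0.958, rho = 0.952), *Msmo1* (r = 0.935) and *Slc3a2* (r = 0.927). *Myc* was most like *Zfp521* (r = 0.927, rho = 0.855), *Zfp362* (r = 0.925) and *Fam122b* (r = 0.925). All these points share the same 10 libraries, and the best of so many candidates is high by choice, so the values are descriptions.

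The 8 lists of further cell cycle genes held 93 symbols, of which 92 were in the table and 72 passed the expression filter. None of the 72 passed the threshold (limma, adjusted p at least 0.299), and 8 (11.1%) had an unadjusted p under 0.05, beside 7.62% of all genes. There were 35 with a higher and 37 with a lower mean on the log2 scale, and the median log2 fold change was −0.0083. Among them 3 (4.17%) had groups that did not overlap, beside 1.64% of all genes.

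By role, the INK4 inhibitors, which bind CDK4 and CDK6 directly, were represented by *Cdkn2d* (10.1 ± 1.76 FPKM with vehicle and 10.2 ± 1.79 FPKM with MEKi) and *Cdkn2c* (5.26 ± 0.894 and 6.12 ± 1.01 FPKM), with *Cdkn2a* and *Cdkn2b* on at most 17 fragments in a heart. None of the 3 tested passed, and all 3 were at a higher mean with MEKi (median log2 fold change 0.21). Of 11 tested pocket protein, E2F and DREAM genes, 0 passed, 3 were higher and 8 lower (median −0.10), with *E2f5* at 2.69 ± 0.542 and 2.13 ± 0.227 FPKM. Of 7 tested genes for cyclin E and CDK activation, 0 passed, and the closest was *Cdk7*, the CDK-activating kinase gene, at 2.79 ± 0.351 and 3.24 ± 0.356 FPKM (limma adjusted p = 0.715).

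The MYC and MAX network had 10 tested genes, 4 higher and 6 lower with MEKi, and 0 passed. *Mnt*, which encodes a MAX partner that opposes MYC, was above every vehicle heart in every MEKi-treated heart, at 2.26 ± 0.165 and 2.67 ± 0.157 FPKM (limma log2 fold change 0.23 with SE 0.10 and adjusted p = 0.6005). Among 10 tested genes for turnover of cyclin D, p27 and MYC, *Fbxw7*, the substrate receptor that marks MYC and cyclin E for degradation, also had groups that did not overlap, at 5.53 ± 1.04 and 7.08 ± 0.331 FPKM (limma log2 fold change 0.37 with SE 0.13 and adjusted p = 0.517). *Fbxo4*, an F-box gene linked to cyclin D1 turnover, was at 4.78 ± 0.439 and 3.77 ± 0.724 FPKM (limma adjusted p = 0.563). Of 10 tested MYC target genes of ribosome and nucleotide synthesis, 4 were higher and 6 lower (median −0.06) and 0 passed. *Nolc1* was at 5.28 ± 0.711 and 4.22 ± 0.371 FPKM, and *Npm1* at 36.8 ± 3.61 and 43.4 ± 4.09 FPKM (limma adjusted p = 0.548 and 0.596), so these nucleolar genes stood on opposite sides.

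For p53 and its target genes, which include regulators and partners in arrest of *Cdkn1a*, 0 of 13 tested passed, 8 were higher and 5 lower (median 0.04). The proapoptotic gene *Bbc3* (PUMA) was above every vehicle heart in every MEKi-treated heart, at 2.16 ± 0.448 and 3.46 ± 0.548 FPKM (limma log2 fold change 0.67 with SE 0.16 and adjusted p = 0.299). *Gadd45a* was at 4.19 ± 0.979 and 6.93 ± 2.71 FPKM (limma adjusted p = 0.521), and *Trp53* itself at 4.56 ± 0.541 and 3.71 ± 0.638 FPKM (limma adjusted p = 0.652). Of 16 genes of cycling cells, 8 had a mean under 0.5 FPKM, among them *Mki67* at 0.447 ± 0.0801 and 0.300 ± 0.0629 FPKM. The 8 tested held 0 calls, with 3 higher and 5 lower (median −0.21). *Mcm2*, a subunit of the replicative helicase, was at 1.13 ± 0.227 and 0.702 ± 0.194 FPKM (limma log2 fold change −0.63 with SE 0.21 and adjusted p = 0.481), and *Pcna*, the sliding clamp, at 11.3 ± 0.711 and 13.0 ± 1.63 FPKM (limma adjusted p = 0.672).

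Of the 20 listed genes under the filter, which were not tested, 2 (10%) had groups that did not overlap, beside 0.565% of the 12028 genes under the filter with a fragment in some heart, a background not matched on level. *E2f1*, from the pocket protein and E2F list, encodes an activator E2F that RB restrains and had a mean of 0.517 ± 0.109 FPKM with vehicle next to 0.247 ± 0.109 FPKM after MEKi (SD over 5 hearts), on 8 to 30 fragments per heart. *Top2a*, the topoisomerase gene of dividing cells, was at 0.345 ± 0.0670 and 0.167 ± 0.0553 FPKM, on 10 to 64 fragments. The cyclin A2 gene *Ccna2* was at 0.239 and 0.321 FPKM, with groups that overlapped.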

How the data were processed

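Messenger RNA of 10 hearts was selected by poly(A) and sequenced, with 1 library per heart. The authors deposited FPKM per gene with gene length and coordinates. The submitters' processing notes name fastp, STAR 2.5, HTSeq 0.6.1 and mm10, and the annotation release is not given in the sources used here. Gene spans and exon lengths of all 10 genes equal those of GENCODE M21 on GRCm38, from which overlapping exons were taken. In each heart 100% of nonzero FPKM times gene length were whole multiples of 1 step (tolerance, 0.01), which gave the fragments per gene. Fewer fragments give less precision, as for *Myc*, which had 21 to 118 per heart.

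Groups came from the labels. Where the mean over hearts reached 0.5 FPKM, log2(FPKM + 0.1) was compared with limma 3.58.1 in R 4.3.3 (eBayes with a trend, two-sided, Benjamini-Hochberg over all genes, threshold 0.05), tested first on simulated data. Single genes were also compared by exact permutation over all 252 assignments of hearts to groups of 5. Summaries used Python 3.11.15. The genes, lists and alternatives were chosen with earlier results of these data known. All 10 genes are named, and of each further list up to 3 with the smallest p. *Cdkn2a*, *Cdkn2b*, *Mki67*, *E2f1*, *Top2a* and *Ccna2* were named after their values were seen. *Skp1* was not found under that symbol.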

Additional observations from a re-analysis of the deposited data

Results flagged for a closer look

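Among 42 sets of 5 hearts examined (the 10 genes, their shares, sums and ratios, in each group), 2 had 1 heart far from the rest, where chance gives about 1 in 20, or 2.1. *Ccnd2* in MEKi heart 5 was at 11.9 FPKM, and the other treated hearts were between 6.14 and 7.57 FPKM. *Cdkn1a* made up 19.9% of the summed inhibitor FPKM in vehicle heart 1, and between 25.9 and 28.4% in the other vehicle hearts.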

How the results depend on the processing

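No alternative placed any of the 10 genes, or any gene of the further lists, past the threshold. Of 217 alternative values for the 10 genes, 206 kept their direction, and the lowest adjusted p was 0.397 (*Cdk4* without vehicle replicate 1). The other 11 reversed a value near 0. *Cdkn1a* (main log2 fold change −0.07) was at 0.0028 on a TPM scale, 0.0063 without the 3 hearts with high atrial transcripts, and from −0.35 to 0.0899 with each heart left out in turn (0.0238, 0.0899 and 0.0460 without vehicle 5, MEKi 3 and MEKi 4). *Cdkn1c* was from −0.24 to 0.0047, the highest without MEKi 5. *Rb1* (−0.02) was at 0.0564 on a TPM scale, 0.0067 after quantile normalization, 0.0165 without the 3 hearts, and from −0.0926 to 0.0181 with each heart left out (0.0181 and 0.0082 without vehicle 3 and MEKi 5). On the TPM scale the median of all genes tested was higher too, at 0.09 beside 0.01. The cause of the reversals was not tested.

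The count of all genes called, 10, was 2 under a filter of 5 FPKM (5161 genes tested), 18 with array weights, 0 without X, Y and mitochondrial genes, 5 without the 3 hearts with high atrial transcripts and from 5 to 13 with each heart left out (5 without vehicle 2 and 6 without vehicle 5). With the replicate number as a block it was 4. Same-numbered hearts did not deviate together (r from −0.15 to −0.02), so they share only a number, and no heart of the vehicle group correlated best with its own number. *Cdk4* differed by 3.61 percentage points in its share of both kinases when counted in fragments rather than per length, and by 1.14 in FPKM. The ratio of *Ccnd1* to *Ccnd2* was added after the data were seen.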

Other observations

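*Cdkn1a* and *Myc* varied together around their group means (r = 0.806, rho = 0.770 over 10 hearts, and r = 0.674 without MEKi heart 5), as did *Ccnd1* and *Ccnd2* (r = 0.774, rho = 0.770). Stronger relations of opposite sign were those of *Cdk4* with *Cdkn1b* (r = −0.905, rho = −0.903), of *Ccnd2* with *Cdkn1c* (r = −0.886, rho = −0.891) and of *Ccnd1* with *Cdkn1c* (r = −0.825, rho = −0.806). These are the 5 pairs of largest absolute r among 45 over the same 10 libraries, and are descriptions. The ratio of *Cdk4* to each other gene tested was higher in all MEKi-treated hearts than in all vehicle hearts for 3.69% of genes. That figure was 2.21% for *Cdkn1b* and 0.119% for *Myc*, and in the lower direction 5.17% for *Ccnd1* and 1.24% for *Ccnd3*. It was not computed for genes outside the 10, so its usual size is not known.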
